A study of Macaca mulatta with 16 samples.

Results

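Naive and memory CD4+ T cells from the blood of 2 rhesus macaques were compared by ATAC-seq, in which a transposase cuts accessible DNA so that open chromatin appears as peaks of reads. The comparison took the 8 CD4+ libraries of a series of 16, namely 4 naive and 4 memory libraries chosen by the cell type in their labels. The other 8 libraries are naive and memory CD8+ T cells, used here only to read the CD4+ regions in libraries that did not choose them. Each animal gave a naive and a memory library before treatment, with no agent, and again after 2-hydroxypropyl-beta-cyclodextrin (Kleptose HBP), a cholesterol-binding sugar ring, injected under the skin daily, for at most 120 days, as 1 ml/kg of a solution holding 15% by weight. Libraries from before and after treatment were combined within a state, so each state held 2 untreated and 2 treated libraries, and each naive library was matched to the memory library of its animal and time. Every library came from 10000 sorted cells. The labels give neither strain, age and sex of the animals nor the surface markers used for sorting.

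A naive T cell has left the thymus and has not yet met its antigen, and it circulates between blood and lymphoid organs in a resting state. A memory T cell descends from a cell that was once activated, and it keeps some regulatory elements of that activation accessible, so that cytokine and chemokine receptor genes can be switched on faster at a second encounter. Distal elements, mostly enhancers, tend to differ more between such states than promoters do, and enhancers of a gene often lie together over long stretches. Blood memory CD4+ cells are a mixture of helper subsets, and a peak list of the mixture does not show which subset carries a peak. A wider or stronger peak in the bulk can come from more cells with the site open or from more cutting in each cell, and these cannot be told apart.

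The 8 lists held 39667 to 42034 peaks each, and the read depth behind them was unknown, so that a missing peak means a site below detection in that list, which may still be accessible. Naive lists had 40251, 40842, 40419 and 40485 peaks and memory lists 39667, 42034, 40901 and 40703, in the order animal 1 before, animal 1 after, animal 2 before and animal 2 after, which is the order of all values by library below. The ranges overlapped. Peaks covered 60.3 ± 2.34 Mb (SD, n = 4) in naive and 62.2 ± 1.24 Mb (SD, n = 4) in memory lists, with memory higher in 3 of 4 pairs (two-sided exact sign-flip test over pairs, p = 0.25, and 0.5 after adjustment for 4 measures). The median peak was 1143 ± 44.0 bp wide in naive and 1164 ± 27.2 bp in memory lists (SD, n = 4 each), wider in memory in 4 of 4 pairs (exact sign-flip adjusted p = 0.5, the raw p being the smallest that 4 pairs allow, which is above 0.05). Within CD4+ cells, the bases shared by a pair of lists over the bases in either were 0.820 ± 0.0108 between times of the same cells (SD, n = 4 pairs), 0.796 ± 0.00633 between animals and 0.754 ± 0.00364 between states. The state values, at most 0.758, lay below every value for animal or time, of which the lowest was 0.788. Genes at the regions and the markers of the sorted cells were not analysed here, because positions are in rheMac10 and no annotation of that build was used.

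Peaks of the 8 lists that shared at least 1 bp formed 49022 regions, and 29429 of them (60.03%) were open in all 8 CD4+ libraries. A set of 1017 regions had a peak in every naive list and in no memory list, and 1436 regions had one in every memory list and in no naive list. These are called naive regions and memory regions here, and they are 2.07% and 2.93% of all regions, which is the background for each count of them below. Memory regions outnumbered naive ones 1.41 times. With only peaks whose summit −log10 p was at least 3.44, the counts were 807 naive and 871 memory regions, a ratio nearer to 1. Regions open in 1 library alone were about as frequent in the states, with 2145 in a naive and 2234 in a memory library.

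**Figure D1:**
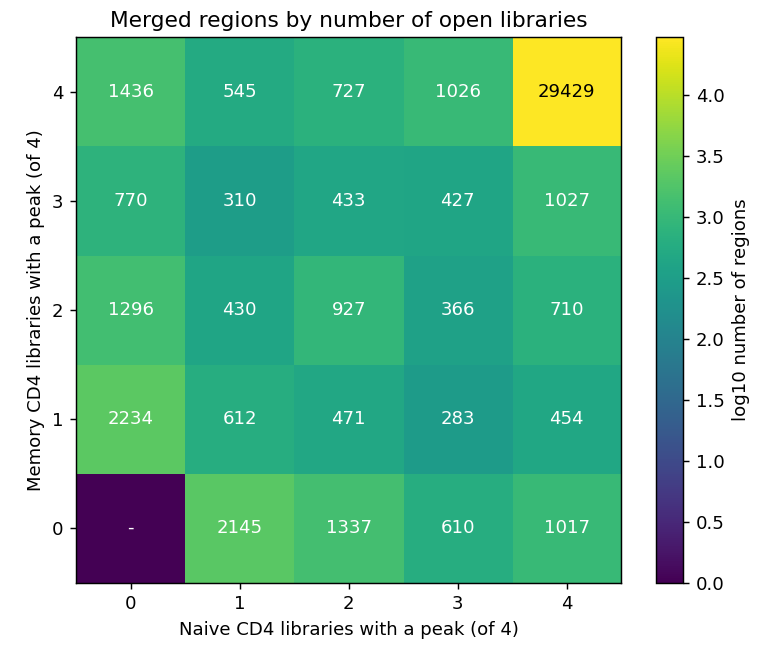
Number of merged regions by how many of the 4 naive CD4+ libraries (horizontal axis) and of the 4 memory CD4+ libraries (vertical axis) hold a peak there, with colour on a log10 scale. The 1017 naive regions sit at the lower right corner, the 1436 memory regions at the upper left, and the 29429 regions open everywhere at the upper right.

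Among the 3973 regions open in exactly 4 of the 8 libraries, 2453 (61.7%) separated the states completely. Fisher's exact test on 4 against 4 libraries gives such a region p = 0.0286, two-sided, the smallest the design allows, and a Benjamini-Hochberg adjusted p of 0.0463 over the 3973. All 2453 therefore passed 0.05 together, 1017 naive (25.6%) and 1436 memory (36.1%), since 2271 or more regions at that p were needed. The call is all or none, and it ignores the pairing. An exact McNemar test over the 4 matched pairs, as a replicate block, called 0 regions, with 0 at an unadjusted p under 0.05, since 4 pairs cannot reach it. It was 0 regions when regions open in 3 to 5 libraries were tested (adjusted p = 0.0938), and 0 when any of the 8 libraries was left out, although the number of separating regions then rose to 1084 to 1248 naive and 1538 to 1739 memory. Only 2 animals stand behind the 4 libraries of a state, and the tests weigh the spread of libraries, not of animals.

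Regions chosen in animal 1 were read in animal 2. Both naive lists of animal 1, and neither of its memory lists, had a peak at 2293 regions, and 1017 of these (44.4%) did the same in animal 2, against 4.67% of all regions. The opposite pattern in animal 2 was seen for 5 of them (0.218%). For memory, 1436 of the 2929 regions of animal 1 (49.0%) did the same in animal 2, against 5.53% of all regions, and 2 showed the opposite. More libraries on the same side in animal 2 were found for 67.2% of the naive and 72.4% of the memory regions chosen in animal 1. Ties made up 720 and 777 of the rest, and 32 and 32 had more libraries on the other side. The same-side share over all regions was not computed. Chosen before treatment and read after it, 1017 of 1863 naive regions (54.6%) and 1436 of 2217 memory regions (64.8%) separated the states again. Over all regions the shares after treatment were 3.62% and 5.14%, and 3 and 2 of the chosen regions were opposite. A region chosen before treatment thus had more of its libraries on the same side after treatment in 83.0% of naive and 90.8% of memory cases. Here 291 and 189 were ties, and 25 and 16 had more libraries on the other side.

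The state regions were smaller and weaker than those open in every library. The authors' caller gives each peak an area score, here ranked within its own list as a percentile. Where a list had more than 1 peak in a region, the highest was taken. Naive regions had a median percentile of 23.8 and memory regions of 24.1, against 61.9 for regions open in all 8 libraries and 5.27 for regions open in 1. Their peaks covered a median of 779 and 783 bp, against 1509 bp in regions open everywhere. Only 45 naive (4.42%) and 84 memory regions (5.85%) had a mean percentile above 50. This compares with 38.9% of all regions and 4.54% of the other 1520 regions open in 4 of 8 libraries. Below the 10th percentile, where a peak is close to the lowest area score deposited, lay 79 naive (7.77%) and 126 memory regions (8.77%). There the shares were 15.6% of all regions and 29.5% of the other 1520. Those 1520 regions were weaker still, with a median percentile of 14.2. The nearest region open in all libraries was a median of 11.0 kb from a naive and 9.89 kb from a memory region, a distance like the 10.7 kb of those other 1520 regions.

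The naive region with the strongest peaks was chr5:143099321-143102285. Its peaks stood at the 77.4th, 82.7th, 78.1st and 80.8th percentile of the 4 naive lists and were 2605 to 2939 bp wide, while no memory list had a peak there. CD8+ cells showed the same split, with a peak in 4 of 4 naive lists and 0 of 4 memory lists. The next, chr2:127381301-127384418, had naive percentiles of 67.8, 67.3, 70.6 and 71.7, and chr3:173072459-173074131 had 67.3, 69.4, 65.0 and 65.5. This last region stood alone, 1859 kb from the nearest region open in all 8 libraries. The other 2 were chr19:1849058-1850791, with a mean percentile of 63.9 ± 1.14 (SD, n = 4), and chr1:175641882-175643643, with 62.5 ± 3.76. In 4 of these 5 no memory CD8+ library had a peak either, and the exception was the region on chromosome 1, with a peak in 3 of 4 memory CD8+ lists.

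The memory region with the strongest peaks was chr8:79272447-79275200, at the 68.7th to the 78.7th percentile of the 4 memory lists, lowest in animal 1 before treatment. It was followed by chr6:154946036-154948833, at the 70.1st, 69.1st, 73.4th and 72.8th percentile. Both were open in 4 of 4 memory and 0 of 4 naive CD8+ libraries. The third, chr10:86693646-86696908, had a peak in 0 of 8 CD8+ libraries. Its memory percentiles were 75.2 and 78.2 in animal 1 and 62.9 and 62.9 in animal 2, so animal 1 ranked it higher at both times. The region chr1:94810453-94814544 had a mean percentile of 69.2 ± 2.62 (SD, n = 4) and peaks of 3681 to 3893 bp, and chr16:41687915-41690134 had 67.2 ± 5.59. With windows of 500 bp around summits in place of whole peaks, the merged window at 4 of these 5 did not separate the states completely. The exception was the region on chromosome 16. The share of libraries in that window, naive minus memory, was -75 percentage points on chromosomes 8, 10 and 1 and -50 on chromosome 6. Each whole region still had a peak in every memory list and in no naive list. The region on chromosome 1 was also open in 3 of 4 naive CD8+ libraries, and that on chromosome 16 in memory CD8+ libraries alone.

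A part of the state regions lay in runs, while 702 naive and 853 memory regions stood alone. When regions of the same direction at most 50 kb apart were joined, 583 of the 1436 memory regions (40.6%) and 315 of the 1017 naive regions (31.0%) had company. Over all 49022 regions, 12.7% had another memory region and 9.46% another naive region within that distance. There were 34 memory and 13 naive runs of at least 4 regions. Of 603 neighbouring pairs of state regions within 50 kb, 563 (93.4%) had the same direction. A memory region lay within 50 kb of 3.83% of naive regions, and a naive region within 50 kb of 2.72% of memory regions. In the 3 longest runs of each direction, no region of the opposite direction was found, and no region within them had more libraries of the opposite state.

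The longest naive run was chr4:83121915-83302009, with 11 naive regions over 180.1 kb. Of the 42 regions in this span, 35 were open in more naive than memory libraries, 7 in all 8, and 0 in more memory libraries. The 11 naive regions had a mean percentile of 10.5 to 53.1, the strongest being chr4:83268181-83271534, which was open in all 4 naive CD8+ libraries too. Among the 7 regions open everywhere, 5 ranked higher in naive and 1 in memory libraries by the test described below. A second naive run, chr2:29290994-29364832, held 8 naive regions over 73.8 kb, with 19 of its 22 regions open in more naive libraries and the other 3 open in all. The third, chr1:206048676-206133492, held 7 naive regions, and 4 of these 7 had no peak in any CD8+ library.

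The longest memory runs, a pair, held 11 regions each. In chr2:161931659-162045203 every one of the 14 regions was open in more memory libraries and none was open in all 8, so that across 113.5 kb the 4 naive lists had a single peak among them. Its 11 memory regions were almost as regular in CD8+ cells, where 9 of them separated memory from naive libraries completely. In chr10:86630787-86770837 the 11 memory regions were mixed with 10 regions open in all 8 libraries, and 8 of these 10 ranked higher in memory. The run chr2:14667691-14752328 held 10 memory regions over 84.6 kb and differed from the first in CD8+ cells. There 7 of its 10 memory regions had no peak in any CD8+ library, and only 2 were open in all 4 memory CD8+ libraries.

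**Figure D2:**
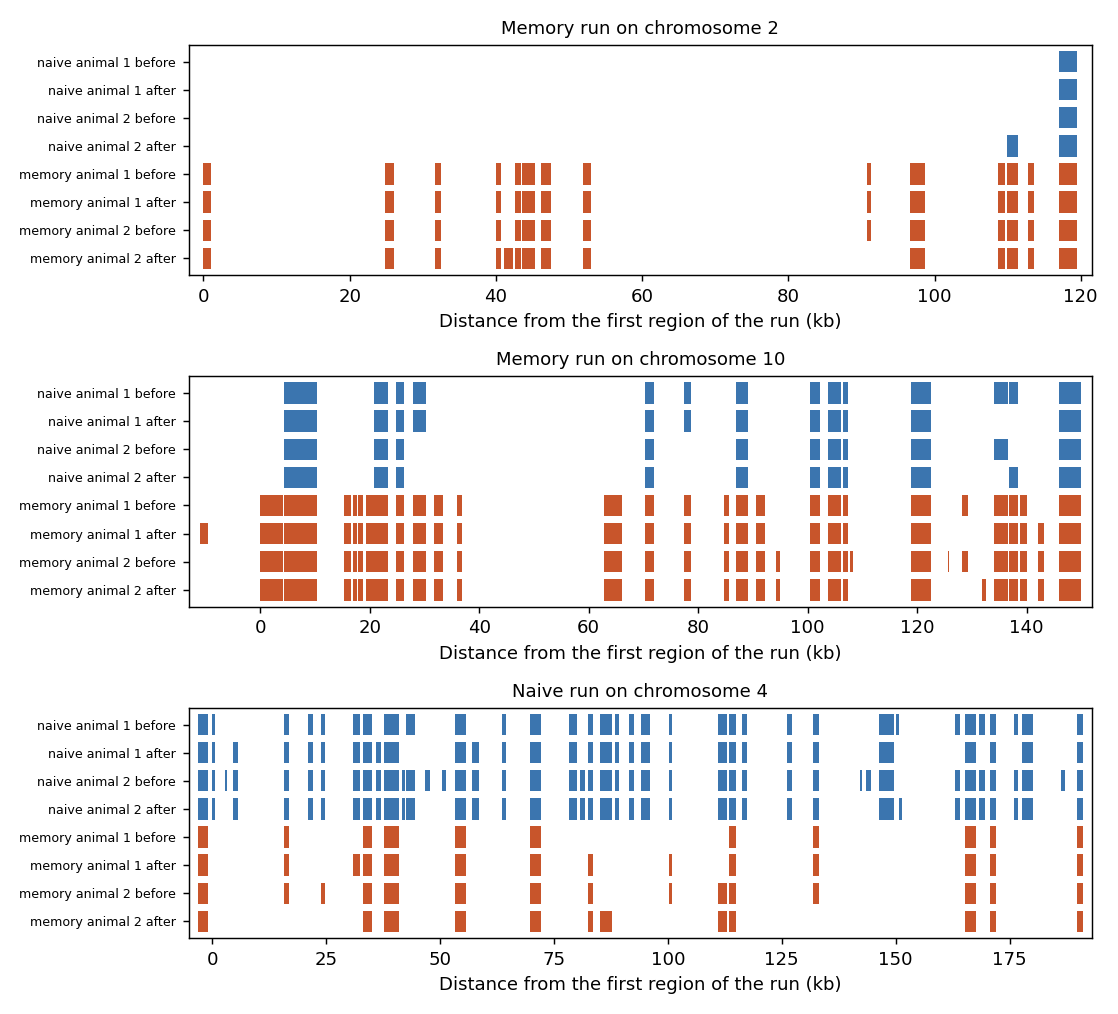
Merged regions along 3 runs, with 1 row per CD4+ library and a bar wherever that library has a peak in the region, drawn at the region's width against the distance in kb from the first region of the run. Naive libraries are blue and memory libraries orange, and regions just beyond the ends of each run are drawn too. The memory run of 113.5 kb on chromosome 2 has 1 bar in the naive rows before the region beyond its end, the one on chromosome 10 mixes memory regions with 10 regions open in all rows, and the naive run on chromosome 4 keeps 7 regions in all rows.

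Regions open in all 8 libraries also differed in area score. For each library these 29429 regions were ranked by the area score of their highest-scoring peak, so that every list had equal length. The ranks were turned into normal scores and tested with limma with the pair of animal and time as a block. A difference on this scale says that a region stands higher or lower among the same regions, and the scores themselves are the authors'. Of the 29429, 3588 (12.2%) ranked higher in naive and 3431 (11.7%) higher in memory libraries at a Benjamini-Hochberg adjusted p under 0.05, each in 4 of 4 pairs, and 23.9% were called in either direction. The differences were mostly modest, with a median gap of 11.3 percentile points between the state means. The area score grows with both height and width of a peak. Ranked by area score per bp, 932 regions were higher in naive and 1031 in memory, of which 784 and 895 were in the first sets with the same direction. These are 21.9% and 26.1% of the first sets, and 6 and 5 of the calls per bp had the opposite direction there. With area scores summed over the peaks of a region, 4093 were higher in naive and 4040 in memory. Without any 1 of the 8 libraries the counts by area score of the highest peak fell to 1128 to 1761 naive and 1274 to 1838 memory. The partner of a left-out library then carries no information in the paired fit.

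The largest difference was at chr2:14755776-14760510, which lies just beyond the third memory run. It ranked at the 1.28th, 2.53rd, 0.528th and 1.81st percentile of the shared regions in naive libraries and at the 81.3rd, 82.6th, 83.1st and 78.3rd in memory libraries. The groups did not come near each other, and the difference was 3.10 ± 0.12 (SE) in normal scores (limma, adjusted p = 0.00490). Its naive peaks were near the bottom of the shared ranking. With only peaks whose summit −log10 p was at least 3.44, no rank test was available for this region. It had a peak in 4 of 4 memory and 0 of 4 naive CD8+ libraries, unlike 7 of the 10 memory regions of that run, which had none. Next came chr10:86651589-86654065, inside the memory run on chromosome 10, with naive percentiles of 1.99, 0.0357, 2.29 and 9.06 and memory percentiles of 63.1, 61.1, 61.7 and 60.8 (difference 2.49 ± 0.35, adjusted p = 0.0143). This call was lost in 4 of the 8 fits that left out a library, those without a library from before treatment, with an adjusted p of up to 0.0569. No rank test was available for it at that stricter threshold or with lists of equal length.

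A broad region, chr1:94816994-94834535, changed from the middle of the shared ranking to its top. Its naive percentiles were 77.8, 57.8, 53.1 and 56.9, and its memory percentiles were 99.9, 99.5, 99.3 and 99.5 (difference 2.42 ± 0.04, limma adjusted p = 0.00151). The region is 17542 bp long and starts 2.45 kb after the memory region chr1:94810453-94814544 described above. With area scores summed over its peaks the difference was 1.57 (limma adjusted p = 0.00691). By area score per bp the difference was -0.08 (adjusted p = 0.835), and its peaks covered 2.67 times as many bases in memory libraries (limma on width, adjusted p = 0.0651). The remaining regions with a large gain in memory were chr1:42145929-42147869, with a mean percentile of 4.35 in naive and 62.4 in memory libraries, and chr1:107458364-107461729, with 1.67 and 55.3. The former was not called in 2 of the 8 fits without a library (adjusted p up to 0.0530). No rank test was available for it at the stricter threshold or with lists of equal length.

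In the other direction, chr19:4210084-4213872 ranked at the 92.9th, 86.9th, 90.0th and 86.4th percentile in naive libraries and at the 1.67th, 8.19th, 10.1st and 7.75th in memory libraries (difference -2.80 ± 0.22, limma adjusted p = 0.00588). It was open in all 8 CD8+ libraries. Per bp its difference of -1.17 was not past the threshold (adjusted p = 0.179), and the same holds for chr10:9179205-9182266 (difference per bp -1.44, adjusted p = 0.0780). The latter had a mean percentile of 56.7 in naive and 1.66 in memory libraries and was open in 4 of 4 naive and 1 of 4 memory CD8+ libraries. At chr4:65498041-65501030 the means were 66.2 and 3.03, and at chr3:35838625-35840577 they were 34.9 and 0.498. Both differed per bp as well (adjusted p = 0.00831 and 0.00770), and the call at the first was lost in 2 of the 8 fits without a library (adjusted p up to 0.0524). The fifth, chr2:29288766-29290882, lies directly before the naive run on that chromosome, with means of 57.2 and 7.70. Without any 1 of the 8 libraries its adjusted p was 0.0504 to 0.122, and with percentiles over the whole list in place of ranks among shared regions it was 0.0827. Among chr1:107458364-107461729 and the regions of this paragraph, some rank tests at alternative settings were also not available.

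Width differed in fewer regions. The bases covered by peaks in a region, on a log2 scale, passed the same limma test in 474 of the 29429 regions (1.61%) for naive and 751 (2.55%) for memory, 4.16% in all, with a median fold of 1.55 and 1.61. Of these, 401 naive (84.6%) and 600 memory regions (79.9%) also ranked higher in the same state, and 0 ranked higher in the other. They are 11.2% and 17.5% of the regions called by rank. The counts depend on all libraries, since they fell to 0 to 57 naive and 0 to 98 memory regions when 1 library was left out, and none of the 10 regions named next passed in every such fit.

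The region chr2:14755776-14760510 was the extreme here too. Its peaks covered 504, 389, 388 and 413 bp in naive and 3973, 3936, 4538 and 4304 bp in memory libraries, a 9.93-fold difference (3.31 ± 0.10 in log2, limma adjusted p = 0.00453, and up to 0.0553 without a library). A small peak in naive cells was thus a stretch of several kilobases in memory cells. At chr1:107458364-107461729 the widths were 530, 540, 444 and 429 bp against 3206, 3251, 3270 and 3138 bp, a 6.66-fold difference (adjusted p = 0.00441, up to 0.0553 without a library). Both states were tight here, and the region had a peak in 4 of 4 memory and 0 of 4 naive CD8+ libraries. The other 3 were 5.13-fold wider at chr1:146314879-146317298, 4.98-fold at chr14:11692749-11700978 and 4.87-fold at chr13:66462251-66468371. The last varied most among naive libraries, with 617, 2328, 703 and 1162 bp. By the widest single peak in place of all bases covered, the calls at chr14:11692749-11700978 (adjusted p = 0.113) and chr13:66462251-66468371 (adjusted p = 0.162) were lost.

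Regions wider in naive cells had smaller folds. At chr7:154809347-154816042 peaks covered 5963, 6355, 6081 and 4754 bp in naive and 987, 1127, 1477 and 1288 bp in memory libraries, a 4.77-fold difference (-2.25 ± 0.14 in log2, limma adjusted p = 0.0104, up to 0.0624 without a library). At chr10:9179205-9182266, also named for its rank, the fold was 4.43, and at chr2:127390599-127393124, shortly after the naive region chr2:127381301-127384418, it was 3.69. The regions chr17:92574560-92577168 and chr6:148687025-148689946 were 3.62-fold and 3.57-fold wider in naive libraries, the former not past the threshold by its widest peak (adjusted p = 0.0735). At chr6:148687025-148689946 the rank by area score per bp went the other way, higher in memory by 0.86 normal scores (limma adjusted p = 0.0392). Its memory peaks were thus narrower, but per bp they stood higher among the shared regions.

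**Figure D3:**
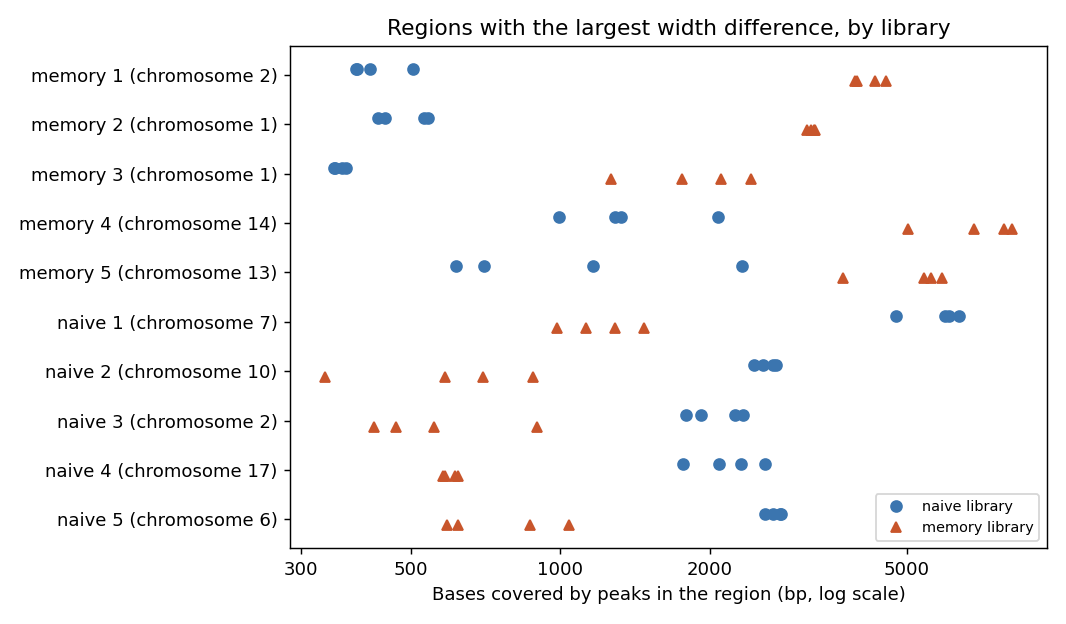
Bases covered by peaks (bp, log scale) in each of the 8 CD4+ libraries for the 5 regions with the largest gain in width in memory cells and the 5 with the largest gain in naive cells, each group in descending order as named in the text. Blue circles are naive and orange triangles memory libraries, and in no region do the states overlap.

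Regions open everywhere leaned the way of the state regions beside them. Of 2406 such regions within 50 kb of a naive region and of no memory region, 645 (26.8%) ranked higher in naive and 141 (5.86%) in memory libraries, against 12.2% and 11.7% over all 29429. Of 3155 within 50 kb of a memory region only, 1016 (32.2%) ranked higher in memory and 145 (4.60%) in naive libraries. The median rank difference, memory minus naive, was -0.10 beside naive regions, 0.12 beside memory regions and -0.02 beside neither. Widths followed, with 5.99% of the first set wider in naive and 9.57% of the second wider in memory, against 1.61% and 2.55% over all. The sets describe neighbourhoods and were not tested, since regions in one neighbourhood are not independent.

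**Figure D4:**
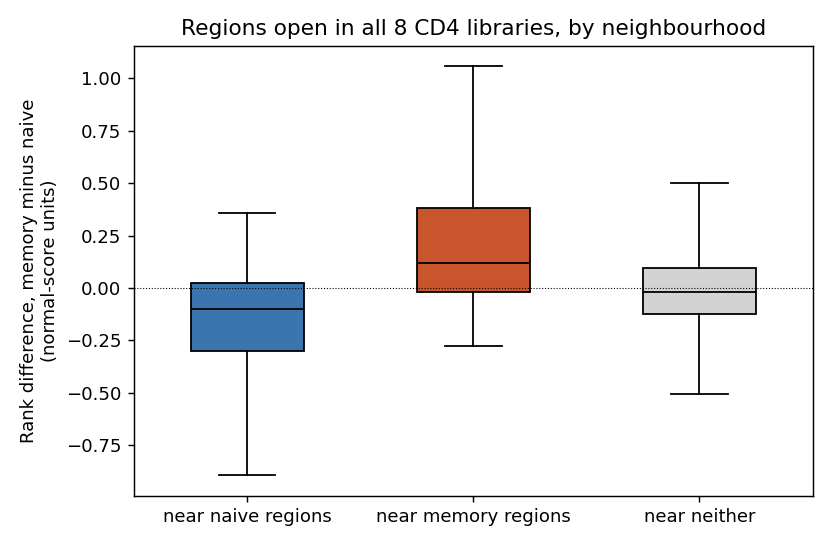
Rank difference (memory minus naive, normal scores) of regions open in all 8 CD4+ libraries, grouped by whether a naive region, a memory region or neither lies within 50 kb. Boxes run from the 25th to the 75th percentile with the median as a line, and whiskers from the 5th to the 95th. The medians are -0.10, 0.12 and -0.02.

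CD8+ libraries had no part in choosing the regions, and their states split in the same direction, although they come from the same 2 animals. The 1017 naive CD4+ regions were open in 71.5% ± 13.3 of cases in naive CD8+ libraries and in 10.2% ± 2.95 in memory CD8+ libraries (SD, n = 4 each, exact permutation test, two-sided, p = 0.0286, the smallest possible, adjusted p = 0.0286 over 2 tests). The spread among naive CD8+ libraries followed the animals, with 56.4% and 64.3% in animal 1 and 82.9% and 82.5% in animal 2. The lists of animal 1 were also the shortest, with 36307 and 37966 peaks against 41396 and 41150. The part of list length in these shares was not tested. The 1436 memory CD4+ regions were open in 75.1% ± 4.44 of cases in memory and 18.2% ± 3.17 in naive CD8+ libraries (SD, n = 4 each, exact permutation p = 0.0286, adjusted p = 0.0286). Both permutation tests treat the 4 libraries of a state as independent and ignore their pairing by animal and time. An exact sign-flip test over the 4 CD8+ pairs was not run, and with 4 pairs it cannot reach 0.05. Regions open in all 8 CD4+ libraries were open in 95.4% ± 2.01 and 92.8% ± 0.566 of cases in naive and memory CD8+ libraries.

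**Figure D5:**
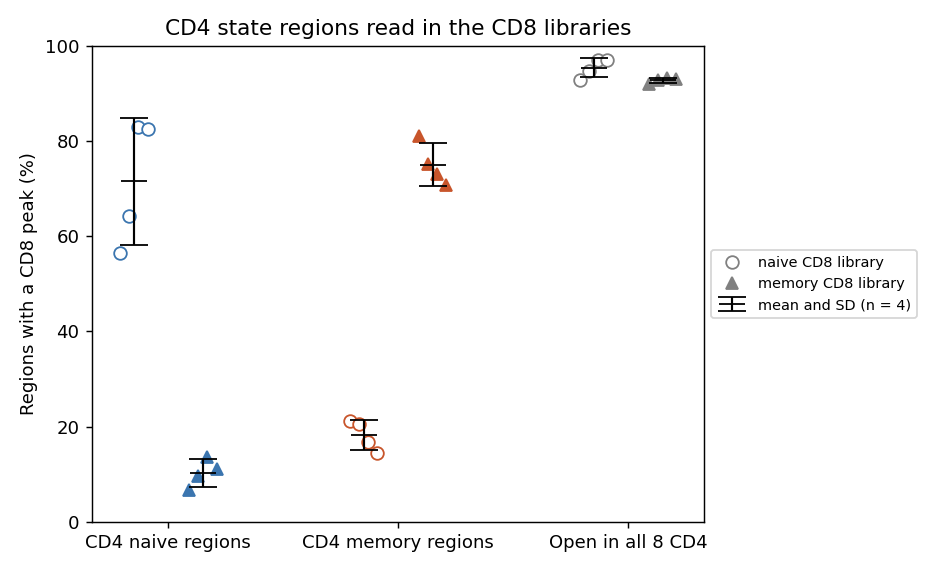
Share of CD4+ naive regions, memory regions and regions open in all 8 CD4+ libraries that hold a peak in each CD8+ library (percent, 1 symbol per library, open circles naive and triangles memory, with mean and SD). Naive regions lie at 56.4% to 82.9% in naive CD8+ libraries and at 6.59% to 13.7% in memory ones, and memory regions at 14.4% to 21.1% and at 70.8% to 81.1%.

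Region by region, the lineages overlapped in part. Complete separation in CD8+ cells, 4 of 4 against 0 of 4, was found for 374 of the 1017 naive regions (36.8%) and 505 of the 1436 memory regions (35.2%), and 0 were separated in the opposite direction. Over all 49022 regions, 3.10% separated the CD8+ states as naive and 3.23% as memory. No CD8+ library had a peak at 11.9% of naive and 11.7% of memory regions, which is near the 10.4% of all regions and below the 15.7% of the other 1520 regions open in 4 of 8 CD4+ libraries. All 8 CD8+ libraries had one at 37 naive (3.64%) and 138 memory regions (9.61%), against 53.3% of all regions and 84.4% of the regions open in all 8 CD4+ libraries. Among the other 1520 regions open in 4 of 8 CD4+ libraries, this share was also far below that of all regions. It lay between the shares of naive and memory regions. Differences in rank carried over as well. Of the regions open in all 16 libraries that ranked higher in naive CD4+ cells, 1913 of 2444 (78.3%) ranked higher in naive cells in all 4 CD8+ pairs, against 30.9% of all 24827 such regions. For memory this was 2128 of 2733 (77.9%), against 21.2%. A few went the other way in all 4 CD8+ pairs, 34 of the naive (1.39%) and 43 of the memory ones (1.57%).

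No region passed a test for a state difference that itself differed between times or between animals. The interaction of state with time, tested with limma over the 29429 shared regions, gave 0 regions for rank (1377 at an unadjusted p under 0.05, smallest adjusted p = 0.718) and 0 for width (1651, smallest adjusted p = 0.848). The interaction of state with animal gave 0 for rank (1935, smallest adjusted p = 0.490) and 0 for width (1773, smallest adjusted p = 0.747). With 4 libraries per time these tests had few degrees of freedom, and a p that misses the threshold does not show that the differences were alike. Each time alone separated the states at 1910 naive and 2280 memory regions before and at 1872 naive and 2652 memory regions after treatment, when only its own 4 lists were merged. The memory libraries of animal 1 had 39667 peaks before and 42034 after treatment, and the part of this in the larger count of memory regions after treatment was not tested.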

How the data were processed

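ATAC-seq peak lists, 1 per library and not pooled, were used for 8 CD4+ libraries and, as a readout, 8 CD8+ libraries. The submitters' processing notes name cutadapt 1.18, Bowtie2 2.3.4.1, Genrich 0.6 and rheMac10. The labels state no caller settings, duplicate removal or shift for the transposase. The deposited area score has a lowest value of 200.0, and the −log10 p deposited per summit runs from 2.44 to 16.1. Neither was normalized between lists by the authors as far as the labels say, so both served only to rank or filter within a list. Libraries took 11 to 15 amplification cycles, per the labels' protocols.

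Peaks sharing at least 1 bp were merged, and coordinates are 1-based. Ranks and widths were fitted with limma 3.58.1 (R 4.3.3) over all regions open in all 8 libraries with the pair of animal and time as a block, and p-values were adjusted by Benjamini-Hochberg at 0.05. Fisher's test used regions open in 4 of 8 libraries, the one margin at which it can reach 0.05. Pairs come from the titles. Names of the memory files of animal 2 number the animal differently, so animal and state would coincide there if that number were right. Matched libraries deviated together from their group means, with correlations across shared regions of 0.453, 0.444, 0.413 and 0.347, each above the highest unmatched value (at most 0.237). Shared handling and a shared animal cannot be told apart here, so these correlations do not settle the numbering. Regions named were, per direction, the 5 separating regions of highest mean percentile, the 5 past the rank test and the 5 past the width test with the largest difference and the same sign in 4 pairs, and the 3 longest runs. Where the labels name no separate cultures or further animals, p-values measure the spread between these libraries. The fits were tested on simulated data in which 200 of 29429 regions were shifted. By rank, 45% of regions with the smaller shift and 79% with the larger shift were recovered, with 12 false calls. By width these were 31% and 65%, with 5 false calls. Both shifts exceeded the median rank difference of called regions, -0.36 for those higher in naive and 0.42 for those higher in memory. The simulated noise was independent between regions, and in the data 23.9% were called by rank. The error rate in the data is therefore not given by this. Members and lists were chosen with earlier results of these data known. Gene lists and markers fixed for an annotation of rheMac10 were not used. Python 3.11.15, numpy 2.4.6, scipy 1.17.1 and pandas 2.3.3 were used. Alternatives were equal list lengths, a stricter threshold, other overlap rules, summit windows of 500 bp, autosomes, other scales and blocks, each animal or time alone, and each library left out.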

Additional observations from a re-analysis of the deposited data

Results flagged for a closer look

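Of 62 groups of 4 libraries examined for a library far from the others, 1 had one, where chance gives about 1 in 20. At chr1:42145929-42147869, a region open in all 8 CD4+ libraries, the naive library of animal 1 before treatment ranked at the 14.1st percentile of the shared regions, while the other 3 naive libraries lay between 0.165 and 2.25. All 4 memory libraries lay above 60.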

How the results depend on the processing

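With lists of equal length (39667 peaks) or autosomes only, the counts of separating regions and of regions past each test stayed within 1.5 times its value. Separating regions numbered 2364 naive and 3030 memory in animal 1 alone, 2360 and 2825 in animal 2 alone, 1910 and 2280 before treatment alone and 1872 and 2652 after it, since 2 against 2 libraries separate more easily. At the stricter threshold memory regions were 871. Leaving out 1 library gave 1084 to 1248 naive and 1538 to 1739 memory regions. Fisher's test called 0 regions with summit windows of 500 bp (2527 at an unadjusted p under 0.05), with regions open in 3 to 5 libraries, with no filter on the number of libraries (2453 each) and without any 1 library (0 to 0, with 2675 to 2852 unadjusted). As a replicate block, the exact McNemar test over 4 pairs called 0, with 0 at an unadjusted p under 0.05, because its smallest p with 4 pairs is above 0.05. With no replicate block, limma called 2582 naive and 2650 memory regions by rank and 553 and 923 by width, and it lost no region named in the text. By rank, each animal or each time alone gave 0 in both directions (7217 to 8713 unadjusted), area score per bp 932 and 1031, and fits without 1 library 1128 to 1761 and 1274 to 1838. By width, each animal or time alone gave 0 (4221 to 4705 unadjusted), the stricter threshold 180 naive and 304 memory, the widest peak 252 and 437, and fits without 1 library 0 to 57 and 0 to 98. Per bp, the rank difference at chr1:94816994-94834535 turned to -0.0810. Some regions named by rank or by width had no test at some of these settings. The difference in peaks per library, memory minus naive, was 327 and became -442 at the stricter threshold (38.7 to 631 without a pair), and that in median width was 20.8 bp and became 43.0 bp (13.0 to 26.3). Without a pair, bases covered differed by 0.944 to 2.78 Mb and the percent of peaks on X by -0.00947 to 0.0329. Without 1 CD8+ library, the share of naive regions open in naive minus memory CD8+ libraries was 57.5 to 66.3 percentage points, and that of memory regions -58.3 to -54.9. Unknown depth limits all counts of absent peaks.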

Other observations

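The state regions were spread unevenly over chromosomes. Memory regions were 4.43% of all regions on chromosome 8 and 4.21% on chromosome 5, but 1.27% on X and 1.04% on chromosome 19, against 2.93% overall. Naive regions ran from 1.31% on chromosome 8 to 3.16% on chromosome 2, against 2.07% overall. Chromosomes 11, 19 and X had more naive than memory regions, on chromosome 19 36 against 25. Of the 1717 regions on chromosome 19 open in all 8 libraries, 16.9% ranked higher in naive and 5.88% in memory. Chromosome 16 leaned the same way, with 14.8% and 8.18% of 1761 regions, whereas chromosome 4 had 12.2% and 14.7%. Base composition and gene density of the chromosomes were not analysed here.

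Differences in rank were most frequent between the 20th and the 40th percentile of the shared regions, where 32.7% of 6509 were called in either direction. Between the 40th and the 60th this was 28.2% of 5624, against 16.1% of the 5761 above the 80th and 23.6% of the 5617 below the 20th. Width calls followed the same order, with 7.28%, 5.51%, 1.61% and 3.88%. On a mean over both states, a region with a large gap between them cannot lie near either end, so this order is in part fixed.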
